A study of Mus musculus with 2 samples.

Results

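Cubn, Dab2, Lama1 and Col4a2 are 4 genes of the primitive endoderm, the extraembryonic layer that forms beside the epiblast of the early mouse embryo. They were taken by symbol from a table of 886 genes that the authors listed as different between 46C mouse embryonic stem cells overexpressing the Flag tag alone and 46C cells overexpressing Flag-tagged Prdm14, a PR-domain DNA-binding protein of pluripotent and germ cells. All 4 were found in the table. The 46C line carries a fluorescent reporter in the neural gene Sox1, and both cultures were kept in LIF and serum. The labels give 1 sample per condition and name embryo as the tissue, while the series' design text names gadd45g in place of Prdm14 as the tagged gene. Values are the authors' mean TPM, a level scaled by transcript length and by library total. No value per replicate is in the table used here, so no SD or test of the conditions could be computed, and the read depth is unknown. Throughout, a gene is called higher or lower by its level in Prdm14 cells against that in Flag cells.

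The primitive endoderm gives rise to the visceral endoderm, an absorptive layer that takes up nutrients for the embryo, and to the parietal endoderm, which secretes a thick basement membrane. Cubilin, the product of Cubn, is a large endocytic receptor for vitamin B12 bound to intrinsic factor, for apolipoprotein A-I and for albumin. It is anchored at the surface by amnionless and works with the receptor megalin, encoded by Lrp2. Dab2 is a clathrin adaptor that binds the tails of megalin and other receptors of the LDL receptor family and draws them into coated pits. Lama1 encodes the laminin alpha-1 chain and Col4a2 the collagen IV alpha-2 chain. Laminin and collagen IV each form a network, and both networks together make the scaffold of a basement membrane. Cultures of embryonic stem cells in serum are known to vary from cell to cell and can hold cells with primitive endoderm transcripts.

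The sequences upstream of the starts of Cubn, Dab2 and Col4a2 are shown because the 3 genes were lower together, and because the Dab2 starts differ in base composition. They come from the RefSeq promoter table on GRCm38.p6, the same assembly as mm10, and run 5′ to 3′ on the strand of the gene. Capitals in the first 3 mark CpG dinucleotides, and each of these stretches is free of annotated exons. Capitals in the Col4a2 stretch mark a GGGCGG box on the opposite strand and a CCAAT box.
Cubn, chr2:13491877-13492126, minus strand: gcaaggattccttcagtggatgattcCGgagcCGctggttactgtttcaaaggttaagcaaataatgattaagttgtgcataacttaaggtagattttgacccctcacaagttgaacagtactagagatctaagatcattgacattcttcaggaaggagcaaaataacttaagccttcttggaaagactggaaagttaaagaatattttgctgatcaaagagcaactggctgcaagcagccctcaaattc
Dab2, first start, chr15:6299539-6299787, plus strand: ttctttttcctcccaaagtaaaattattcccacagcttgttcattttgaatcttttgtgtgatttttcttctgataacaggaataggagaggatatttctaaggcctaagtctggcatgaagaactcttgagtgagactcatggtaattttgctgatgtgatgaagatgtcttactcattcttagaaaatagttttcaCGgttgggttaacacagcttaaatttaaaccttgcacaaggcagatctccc
Dab2, second start, chr15:6386498-6386597, plus strand: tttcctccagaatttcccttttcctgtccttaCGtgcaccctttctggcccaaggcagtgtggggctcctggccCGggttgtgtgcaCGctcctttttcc
Col4a2, chr8:11312757-11312786, plus strand: CCGCCCgaggagctccCCAATttgttggcg

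The 250 bases before the annotated start of Cubn were 39.6% G and C with 2 CpG, and those before the first Dab2 start were 36.8% with 2 CpG. The second Dab2 start lies 86.959 kb further into the gene, where the 250 bases were 60% G and C with 17 CpG. The Col4a2 window was 73.6% G and C with 26 CpG, against a median of 52.4% and 6 CpG over 32851 mouse promoter windows of that length. Of 14 annotated Dab2 transcripts, 5 begin within 100 bases of the first start and 4 within 100 bases of the second. The table gives a single value for Dab2, so the starts cannot be told apart in these data. Both low-CpG windows belong to the endocytosis genes, but the window of the second Dab2 start, with 17 CpG, was above the median of 6. The CpG-rich Col4a2 window is shared with its neighbour. Lama1 had no window, so the endocytosis and basement membrane genes cannot be compared as pairs.

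Exact matches on both strands of these 250-base windows were sought for GTCTCTA, the core of the Prdm14 motif, for AGATAA of GATA factors, for ACAATG of SOX factors, for GGGCGG of Sp1, for TATAAA and for CCAAT. No pair of these strings overlapped in the windows of the members. The Cubn window and both Dab2 windows held none of the 6 exact strings. Other forms of these strings were not searched. For example, TGATAA, which differs from AGATAA in its first base, is present in the first Dab2 window. The Col4a2 window held 2 GGGCGG boxes, 192 and 48 bases before the start, and a CCAAT box 32 bases before it. Among all 32851 windows, GTCTCTA occurred in 2.85%, AGATAA in 9.99%, ACAATG in 10.7%, GGGCGG in 32.7%, TATAAA in 12.4% and CCAAT in 33.8%. These matches describe letters and are not binding sites.

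Prdm14 itself, the check of the labels, had a mean of 3.296 TPM in Flag cells and 399 TPM in Prdm14 cells, 121-fold higher in the authors' deposited table. Of 8 embryonic stem cell markers, 6 were listed and all 6 were higher. These were Nanog, Esrrb, Zfp42, Klf4, Tfcp2l1 and Tbx3, which summed to 478 TPM in Flag cells and 1413 TPM in Prdm14 cells. The other 2 markers, Pou5f1 and Sox2, were not listed and have no value here. The table was selected: its smallest absolute log2 fold change is 1.00, its smallest larger mean 5.01 TPM and its largest q-value 0.0427. The deposited q-values of the authors have a form that implies an adjustment over 20309 tests, of which the 886 listed genes are 4.36% and the lower ones 2.06%. A gene that is not listed has no value and was not read as unchanged.

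All 4 genes were lower in Prdm14 cells, in a table where 47.2% of genes were lower. Cubn and Dab2, the endocytosis genes, were lower by more than 8-fold, which 7.56% of listed genes were. Lama1 and Col4a2, the basement membrane genes, were lower by about the fold of a typical lower gene. All 4 entered the table through their Flag means, which are above 5 TPM, while 0 of the 4 have a Prdm14 mean of 5 TPM, so a difference was a condition of their being listed. The members were also chosen with these values known, so the shared direction is a description.

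**Figure D1:**
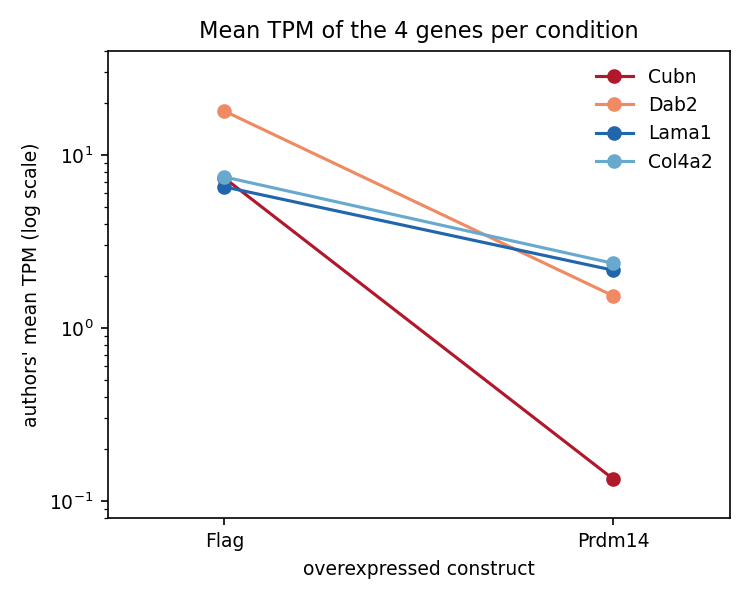
Authors' mean TPM of Cubn, Dab2, Lama1 and Col4a2 (y axis, log scale) in cells overexpressing Flag or Prdm14 (x axis), 1 mean per point and no error available. Lines join the means of a gene: Cubn goes from 7.36 to 0.134 TPM, Dab2 from 17.9 to 1.53 TPM, and the Lama1 and Col4a2 lines run nearly parallel.

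Cubn (ENSMUSG00000026726, mm10 chromosome 2, 13276338 to 13491813, minus strand) had a mean of 7.36 TPM in Flag cells and 0.134 TPM in Prdm14 cells. It was the lowest of the 4 in Prdm14 cells, and in that column it stood 876th of 886 listed genes from the highest. Its log2 fold change was, in the authors' deposited table, -5.78, a 54.8-fold lower mean, with a p-value of 1.25e-14 and a q-value of 5.89e-13 from their unnamed test. It is the 12th largest decrease among the 886 genes. The size of this fold rests on a mean far below 1 TPM: with 1 TPM added to both means it is 7.37-fold, and with 0.1 TPM it is 31.8-fold. In TPM the drop was 7.22, less than that of Dab2. The gene spans 215 kb, its longest annotated transcript has 67 exons and 11262 bases, and the predicted gene Gm13270 overlaps it on the opposite strand.

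Dab2 (ENSMUSG00000022150, mm10 chromosome 15, 6299788 to 6440712, plus strand) was the highest of the 4 in Flag cells, at 17.9 TPM, and stood at 1.53 TPM in Prdm14 cells. The mean was lower by 16.4 TPM, the largest drop of the 4 in TPM. Its log2 fold change was, in the authors' deposited table, -3.55, an 11.7-fold lower mean, with a p-value of 1.86e-25 and a q-value of 2.13e-23. Dab2 had the 43rd largest decrease of the table and the smallest q-value of the 4. With 1 TPM added to both means the fold was 7.46, next to 7.37 for Cubn, so the order of Cubn and Dab2 by fold depends on how low means are treated. Its longest annotated transcript has 15 exons and 4663 bases, and the predicted genes Gm16311 and Gm18888 overlap it on the opposite strand.

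Lama1 (ENSMUSG00000032796, mm10 chromosome 17, 67697259 to 67822647, plus strand) had a mean of 6.54 TPM in Flag cells and 2.16 TPM in Prdm14 cells. Its log2 fold change was, in the authors' deposited table, -1.60, a 3.03-fold lower mean, with a p-value of 0.00558 and a q-value of 0.0295. Over the 418 lower genes the median was also -1.60, so its fold is that of the middle lower gene. By q-value Lama1 stood 877th of 886, among the weakest calls of the table, and a q-value limit of 0.01 leaves it out. No annotated gene overlaps Lama1, whose longest transcript has 63 exons and 9526 bases.

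Col4a2 (ENSMUSG00000031503, mm10 chromosome 8, 11312805 to 11449287, plus strand) had a mean of 7.46 TPM in Flag cells and 2.36 TPM in Prdm14 cells. Its log2 fold change was, in the authors' deposited table, -1.66, a 3.16-fold lower mean, with a p-value of 0.00189 and a q-value of 0.0119. It stood 843rd of 886 by q-value and is also left out at a limit of 0.01. Its longest annotated transcript has 48 exons and 6450 bases. Col4a1, the gene of the partner chain with which the alpha-2 chain assembles, lies head to head with it on the minus strand at 11198423 to 11312826, so that the starts overlap by 22 bases, and the predicted gene Gm15419 overlaps it as well. Col4a1 is not among the listed genes and has no value here, and whether reads were counted by strand is not given in the sources used here. Col4a2 is 1 of 13 lower genes on chromosome 8, where 51 of 64 listed genes were higher.

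Between the members, the basement membrane pair stood in nearly the same proportion in both conditions, while that of the endocytosis pair depends on how the low Cubn mean is treated. Col4a2 stood at 1.14 times the Lama1 level in Flag cells and 1.10 times in Prdm14 cells, on the TPM scale. Both genes lay near the median log2 fold change of the 418 lower genes, -1.60, so such a steady ratio is not particular to this pair. Dab2 stood at 2.44 times the Cubn level in Flag cells and 11.4 times in Prdm14 cells. With 1 TPM added to each mean these ratios were 2.26 and 2.23, and with 0.1 TPM they were 2.42 and 6.98, so the shift of this pair rests on the Cubn mean of 0.134 TPM. Dab2 went from 2.74 times the Lama1 level to 0.711 times (2.51 to 0.803 with 1 TPM added), so that it was the highest of the 4 in Flag cells and below both basement membrane genes in Prdm14 cells. The summed level of the 4 genes was 39.3 TPM in Flag cells and 6.19 TPM in Prdm14 cells, 6.34-fold lower, and Dab2 made up 45.6% of the first sum and 24.8% of the second. In bulk RNA, fewer cells of a type and less RNA per cell cannot be told apart. Cubn, Lama1 and Col4a2 lay within 6.54 to 7.46 TPM in Flag cells, and with no spread available their order there cannot be judged.

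**Figure D2:**
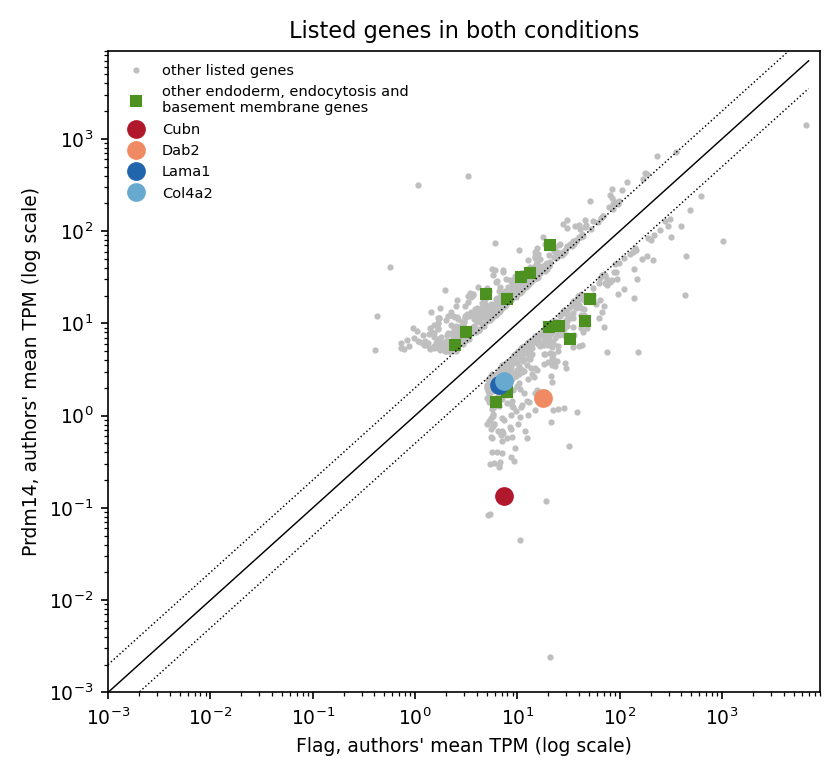
Authors' mean TPM in Flag cells (x axis, log scale) and Prdm14 cells (y axis, log scale) for the listed genes, without those at the floor of 0.0001 TPM; the solid line marks equal means and dotted lines a 2-fold difference. Lama1 and Col4a2 sit in the dense band of lower genes, Dab2 lies below it, and Cubn lies further down at 0.134 TPM in Prdm14 cells; green squares are the 14 other listed genes of 10 endoderm, endocytosis and basement membrane lists.

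The other genes of the same pathways were taken from 10 lists of 126 distinct genes. Of these, 18 (14.3%) were listed, 11 lower and 7 higher, against 4.36% listed over all tests implied by the q-values. Some of the 126 may not have been among those tests. The 18 include the 4 members, which were picked from the table, and the lists were chosen with earlier results of these data known. The share is therefore a description. Without the 4 members, 14 of 122 genes (11.5%) were listed, 7 higher and 7 lower. Their median log2 fold change of 0.02 falls in the gap between lower and higher genes. The table holds no gene in that gap, so this median does not mean that these genes were unchanged. The median over the whole table was 1.03, as 468 of 886 genes were higher. Outside the 4 members the lists therefore held as many higher as lower genes.

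Of the 7 transcription factors of the primitive endoderm on the list, which include Gata4, Gata6, Sox17, Sox7, Foxa2 and Hnf4a, none was listed by the authors, so none of the defining regulators of the layer has a value here. Of 6 receptor and ligand genes, 2 were listed. Fgfr2, an FGF receptor of the primitive endoderm, went from 7.94 to 1.79 TPM, 4.43-fold lower, and its annotated span overlaps other genes, so its value is uncertain. Pdgfa, the ligand of the receptor Pdgfra, went from 7.99 to 18.3 TPM, 2.29-fold higher. Of 20 markers of visceral and parietal endoderm, 3 were listed. Snai1, a zinc finger repressor of parietal endoderm, was 4.45-fold lower (6.19 to 1.39 TPM), and the keratin gene Krt18 was 4.298-fold lower (45.4 to 10.6 TPM). Trf, which encodes transferrin, a ligand of cubilin made by visceral endoderm, was 4.24-fold higher (4.897 to 20.8 TPM).

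In the endocytosis list of 16 genes, Cubn and Dab2 were the 2 lower genes and 3 others were higher. Lrp1, a scavenging receptor of the LDL receptor family, went from 13.4 to 34.8 TPM, 2.60-fold higher. Dab1, the relative of Dab2 that carries reelin signals from LDL receptor family members, went from 10.9 to 31.5 TPM, 2.88-fold higher. Dab2 was thus above Dab1 in Flag cells and below it in Prdm14 cells on the TPM scale. Fcgrt, the receptor that recycles antibodies and albumin, went from 3.11 to 8.06 TPM, 2.59-fold higher. Lrp2 and Amn, the partners of cubilin, were not listed. Of 21 clathrin coat and early endosome genes, Hip1, which links clathrin to actin, was the single listed gene, at 32.6 TPM in Flag cells and 6.72 TPM in Prdm14 cells, 4.85-fold lower.

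Among the 11 laminin chains, Lama1 and Lama5 were lower. Lama5, the other embryonic alpha chain listed, went from 50.8 to 18.4 TPM, 2.77-fold lower, with a q-value of 2.67e-53 in the authors' deposited table. It was above Lama1 in both conditions on the TPM scale. Lamb1 and Lamc1, the partner chains of Lama1, were not listed.

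Col4a2 was the single listed gene of the 6 type IV collagen chains. Of 18 other basement membrane proteins, 3 were listed. Pxdn, the peroxidase that crosslinks collagen IV, went from 25.5 to 9.33 TPM, 2.74-fold lower, and Smoc1, a calcium-binding matrix protein, from 20.4 to 9.16 TPM, 2.23-fold lower. Nid1, which links the laminin and collagen IV networks, went from 20.6 to 70.6 TPM, 3.42-fold higher. The listed matrix proteins thus went both ways, with Lama1, Lama5, Col4a2, Pxdn and Smoc1 lower and Nid1 higher. On their own strand Lama5 and Smoc1 overlap microRNA genes, and Trf, Dab1 and Hip1 overlap predicted genes, so these values are less certain. None of 11 basement membrane receptors and none of 12 genes of collagen folding, secretion and crosslinking was listed.

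**Figure D3:**
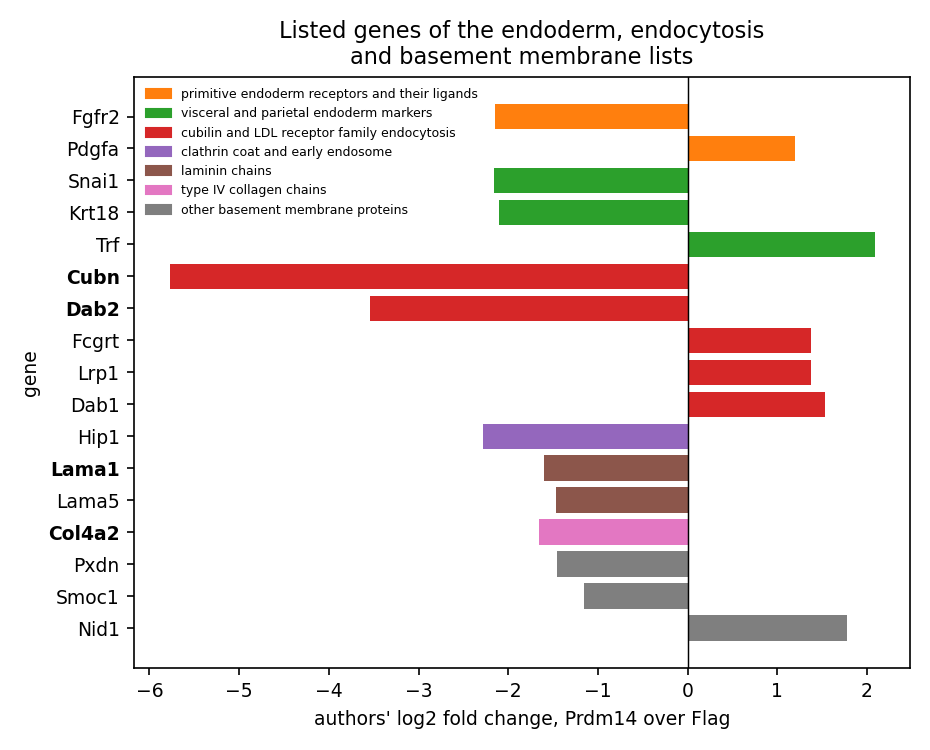
Log2 fold change, Prdm14 over Flag, from the authors' deposited table (x axis) for 17 listed genes of the 10 lists (y axis), coloured by list, with the 4 members in bold and no error available. Bars to the left are lower in Prdm14 cells: 11 genes, led by Cubn at -5.78; the 6 bars to the right are led by Trf at 2.08.

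Markers of other cells that such a culture could hold were compared in the same way. Of 13 fibroblast and feeder markers, the smooth muscle gene Tagln was the single listed one, at 5.91 TPM in Flag cells and 1.23 TPM in Prdm14 cells. Of 8 trophoblast markers, Tead4 and Tfap2c were listed, and their summed level went from 16.0 to 41.0 TPM. The other 6 were not listed and have no value here, so this sum does not stand for the cell type. The listed shares were 7.69% of fibroblast and feeder markers and 25% of trophoblast markers, against 4.36% over all tests implied by the q-values. Of all 886 listed genes, 468 were higher. No listed marker of these lists stood at the floor of 0.0001 TPM, and the part of other cells in the values of the 4 genes was not tested.

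The genes whose pair of means was most like that of each member, by distance on the log2 TPM scale over the 2 conditions, were not on the fixed lists. For Cubn they included Hs6st2, a heparan sulfate sulfotransferase (5.17 to 0.0836 TPM), at a distance of 0.852. For Dab2 they were Enpp2, the secreted enzyme autotaxin (18.7 to 1.81 TPM), the interferon-inducible GTPase gene Igtp (14.8 to 1.76 TPM) and Cthrc1, a secreted protein with a collagen repeat (15.4 to 1.89 TPM), at distances of 0.245 to 0.372. For Lama1 they were Tcte2, Pdlim4 and Xlr3a, within 0.13 of it, and for Col4a2 they were Naprt, Ccdc160 and H2-T22, within 0.0462. Igtp, Xlr3a and H2-T22 belong to families of close copies, so their values are uncertain, and Tcte2 and Naprt overlap other genes.

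Lama1 and Col4a2 had large q-values for their level and fold. Within 0.5 of Lama1 on that scale lay 59 listed genes, of which 58 had a smaller q-value in the authors' deposited table, with a median of 2.62e-05 against 0.0295 for Lama1. Around Col4a2 lay 62 genes, of which 58 had a smaller q-value, with a median of 6.27e-06 against 0.0119. Both genes have longer transcripts than most of these genes: 1 of 59 was longer than the 9526 bases of Lama1, and 7 of 62 longer than the 6450 bases of Col4a2. Around Dab2 lay 5 genes, 3 with a smaller q-value, and around Cubn none. Of the 5 genes around Dab2, 0 had a longer transcript than its 4663 bases, so long transcripts are not particular to Lama1 and Col4a2. Whether transcript length bears on the q-values was not tested.

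**Figure D4:**
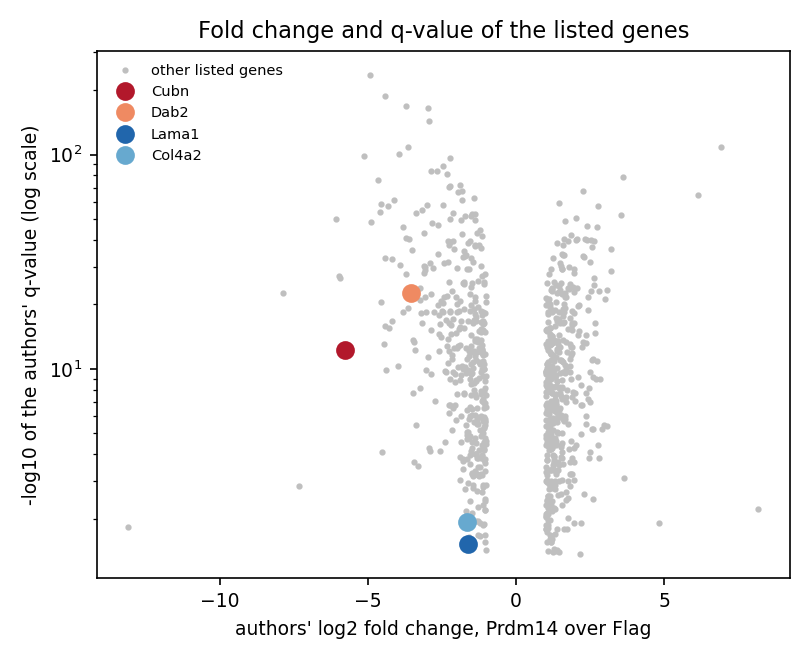
Log2 fold change, Prdm14 over Flag (x axis), and -log10 of the q-value (y axis, log scale), both from the authors' deposited table, for the listed genes off the floor. Dab2 and Cubn lie to the left with q-values of 2.13e-23 and 5.89e-13, while Col4a2 and Lama1 lie near the bottom with 0.0119 and 0.0295.

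By position, the 4 genes lie on 4 chromosomes, and no other listed gene is their close neighbour. The nearest listed gene was Commd3 for Cubn, 5181 kb away, Skp2 for Dab2, 2671 kb away, Clip4 for Lama1, 3946 kb away, and Atp11a for Col4a2, 1308 kb away. All 4 of these nearest genes were higher in Prdm14 cells, in a table where 468 of 886 genes were higher. The folds were 2.18 for Commd3, 4.21 for Skp2, 2.02 for Clip4 and 3.08 for Atp11a. These genes were named for their position, but after their values were seen. On their chromosomes, 31 of 68 listed genes were lower on chromosome 2, 23 of 37 on chromosome 15 and 21 of 46 on chromosome 17.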

How the data were processed

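RNA-seq values of 46C cells overexpressing Flag or Flag-tagged Prdm14 were used, with 1 sample per condition in the labels. Per the labels' protocols, RNA was taken with Trizol and sequenced on an MGI2000 instrument; per the submitters' processing notes, mm10 was the build and Bowtie 0.12.2 among the tools. The sources used here do not name the quantifier or the test. The authors deposited p-values, q-values, log2 fold changes and mean TPM per condition for 886 selected genes. The deposited log2 values equal the log2 ratio of both TPM means to within 4.09e-11. Of the 8 TPM values of the members, 4 carry 7 decimals ending in 5, the form of a mean of 2 values with 6 decimals, and the number behind each mean is not given.

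All 886 IDs matched symbols and GENCODE M21 genes. Promoters are RefSeq windows, found for 3 of the 4 members; Lama1 was not matched. The number of tests behind the q-values was the smallest that gave whole ranks, within 0.01, in most genes (830), a step tested on simulated data. Members, lists and motifs were chosen with earlier results of these data known. Genes named are the members, Prdm14, every listed gene of 13 lists, and the 3 genes nearest to each member among 822 that are neither predicted, clone-named nor at the floor; nearest genes by position were chosen after their values were seen. A few of these genes are not reported here. No test was computed. Alternatives changed pseudocounts, thresholds and overlapping genes. Computation was in Python 3.11.15 with pandas 2.3.3 and numpy 2.4.6, and plots were drawn with matplotlib 3.10.9.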

Additional observations from a re-analysis of the deposited data

How the results depend on the processing

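All 4 log2 fold changes stayed below 0 under both pseudocounts, although every value came closer to 0. With 1 TPM added to both means they were -2.88 for Cubn, -2.90 for Dab2, -1.26 for Lama1 and -1.33 for Col4a2, and with 0.1 TPM they were -4.99, -3.46, -1.56 and -1.62. The cause is in the construction: a pseudocount shrinks ratios of low means. Of the 4 lower members, 2 were left at a log2 change of 2 or 3 in size and 2 at a q-value of at most 0.01 or 0.001, and these were Cubn and Dab2. At a mean over both conditions of at least 5 TPM 1 was left, which was Dab2, and at 10 TPM 0. The 418 lower genes of the table became 145 and 67 at a log2 fold change of 2 and 3. At a q-value of at most 0.01 and 0.001 they became 401 and 382. Most lower genes thus stayed at these q-value limits, while Lama1 and Col4a2 did not. At a mean of 5 and 10 TPM the lower genes became 311 and 188. The 11 lower genes of the 10 lists became 6 and 2 at those fold changes, 6 and 5 at means of 5 and 10 TPM, and 7 without genes that overlap another gene on the same strand. Without genes that overlap another on either strand, an alternative chosen after seeing the data, these counts were 1 member (Lama1), 223 genes and 4 genes. Fewer genes pass each stricter limit by construction. No paired analysis was possible because the labels list 1 sample per condition and the table holds 1 mean for each. The depth is unknown, so how far low means such as that of Cubn in Prdm14 cells can be resolved cannot be judged.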
